A study of Mus musculus with 20 samples.

Results

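The genes described here are 31 genes of the renal tubular epithelium, out of 51826 mouse genes in the count table. They were chosen by name for their known roles, with earlier results of these data known. They are 4 simple epithelial keratins, 5 adhesion and surface proteins, 5 tight junction proteins, 4 regulators of epithelial transcription and splicing, 2 renal lineage transcription factors, 3 injury and secreted proteins and 8 genes that mark single nephron segments. All 31 were in the table, and 28 passed the filter on low counts. The cells were primary renal myofibroblasts of C57BL/6J mice, grown out of minced kidney pieces and used at the second passage, a culture that can also hold other cells growing from the pieces. The 4 groups were cells of WT mice and of their WWP2-/- littermates, each untreated or treated with TGFb1, with 5 libraries of poly-A RNA per group. WWP2 is an E3 ubiquitin ligase, and the deletion in these mice removes its full-length and N-terminal isoforms. TGFb1 is the cytokine used to activate myofibroblasts. Dose and duration of TGFb1 stand in the study's methods and not in the labels. By the study's methods a data point stands for 1 animal or its cells, but the labels tie no library to an animal, so P values measure the spread between these libraries.

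The nephron is lined by 1 continuous epithelium whose segments differ in function. The proximal tubule takes filtered protein back through the receptors megalin and cubilin, the thick ascending limb and distal convoluted tubule reabsorb salt, and the collecting duct adjusts water. Tubular cells share keratins, cadherins and claudins, and carry PAX2 and PAX8 from kidney development. Cells in culture and after injury often lose their segment transporters first, while injured proximal tubule gains KIM-1, the product of Havcr1, and under TGFb1 epithelial cells can repress their junction genes through Snail and Zeb factors.

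The library totals lay between 47520759 and 73063697 counts. A count of 0 allows up to 3 counts, or between 0.0411 and 0.0631 CPM, which covers counting error only. Levels are CPM, counts divided by the library total and scaled by edgeR's TMM factors, given in the order of replicates 1 to 5. Wwp2 was between 50.0 and 59.8 CPM in untreated WT libraries and between 18.5 and 22.7 CPM in untreated WWP2-/- libraries. In the same order, the ranges with TGFb1 were 50.8 to 58.4 and 17.0 to 21.1 CPM, so no library went against its genotype label. Counts remained in all WWP2-/- libraries, and the part of the gene they came from was not examined. In 2 WWP2-/- libraries, untreated replicate 3 and TGFb1-treated replicate 1, Acta2 (smooth muscle actin, which defines the myofibroblast) was at 38.9 and 50.4 CPM, against at least 1016 CPM in the other 18. Each was the library most like the other, across the treatment groups (Pearson r = 0.992 of log2 CPM over the 20407 tested genes), with medians of 0.918 and 0.914 against its own group. Xist, transcribed from the inactive X of female cells, was above 1 CPM in 11 libraries, and in 5 of these Y-linked genes were above 1 CPM too. Whether each of those 5 came from 1 animal is not known. In the 9 libraries with Xist at most 1 CPM, Pdgfra (a fibroblast receptor) was at 0.543 to 1.87 CPM and Dcn (decorin) at 6.69 to 52.1 CPM. In the libraries with Xist they were at 14.4 to 179 CPM and 201 to 1452 CPM. Both genes were thus low in at least 1 library of every group, beside Acta2 at 1305 to 3430 CPM. Col1a1 did not part the libraries in this way, at 854 to 5303 CPM without Xist and 703 to 10845 CPM with it. Results are given with and without the 2 libraries low in Acta2, and within the libraries with and without Xist.

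Tubular genes were found in every library, at levels that differed widely within each group. The number at 1 CPM or more was 23, 23, 12, 26 and 21 in untreated WT libraries and 16, 11, 19, 10 and 9 in WT libraries with TGFb1. It was 21, 25, 8, 16 and 16 in untreated WWP2-/- libraries and 9, 20, 16, 26 and 26 in WWP2-/- libraries with TGFb1. The summed level of the 31 genes ran from 89.8 to 1585 CPM in untreated WT, from 85.9 to 562 CPM in WT with TGFb1, from 86.1 to 2096 CPM in untreated WWP2-/- and from 63.3 to 2015 CPM in WWP2-/- with TGFb1. Every group thus held a library at 89.8 CPM or less, and WT with TGFb1 was the only group with no library above 562 CPM. Of the 26 genes that reached 1 CPM somewhere, 11 were highest in untreated WWP2-/- replicate 2. That library, untreated WT replicate 4 and WWP2-/- replicates 4 and 5 with TGFb1 were the 4 highest libraries for 10 of the 26 genes, and at least 3 of them were among the 4 highest for 20. These 4 libraries were singled out after their values were seen. In bulk RNA, fewer tubular cells and less tubular RNA per cell cannot be told apart.

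**Figure D1:**
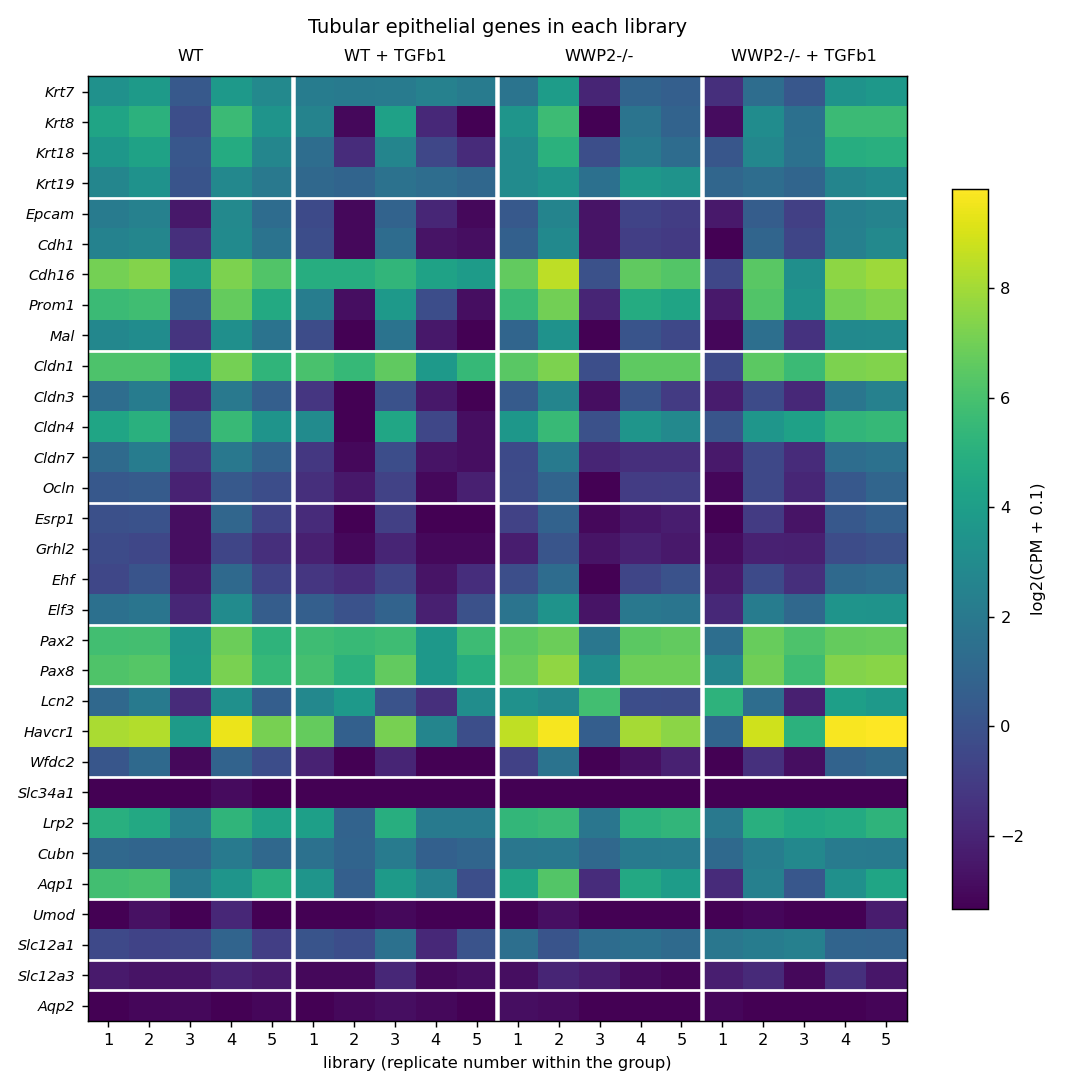
Level of each of the 31 tubular genes (rows, ordered by role, with white lines between roles) in each of the 20 libraries (columns, by group and replicate number), as log2(CPM + 0.1). The columns of untreated WT replicate 4, untreated WWP2-/- replicate 2 and WWP2-/- replicates 4 and 5 with TGFb1 are among the brightest for most genes. Slc34a1, Umod, Slc12a3 and Aqp2 are dark in every column.

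The nephron segment was read first from its defining transporters. Slc34a1, the sodium-phosphate transporter of the proximal tubule, was at 0 CPM in 19 libraries and at 0.0310 CPM in the other. Umod (uromodulin, of the thick ascending limb) reached 0.171 CPM at most, Slc12a3 (the thiazide-sensitive cotransporter of the distal convoluted tubule) 0.252 CPM and Aqp2 (the water channel of the collecting duct) 0.0399 CPM. These 4 therefore stayed below 1 CPM in all libraries and groups, and 3 of them did not pass the filter. Slc12a3 had more than 3 counts in 11 libraries, with 14 at most, and Umod in 2 (11 and 7 counts), while Slc34a1 and Aqp2 were not above the limit of a count of 0 in any library. Slc12a1 and the other 3 proximal genes were above that limit in all 20.

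Megalin and cubilin, the endocytic receptors of the proximal tubule, were both measured in all libraries. Lrp2 was measured at 30.8, 24.6, 4.76, 38.6 and 18.3 CPM in untreated WT libraries and at 17.1, 1.7, 30.2, 4.04 and 4.08 CPM in WT libraries with TGFb1. Lrp2 stood at 40.8, 47.3, 3.52, 34.9 and 39.8 CPM in untreated WWP2-/- libraries and at 3.92, 31.1, 22.9, 25.9 and 36.9 CPM in WWP2-/- libraries with TGFb1. Lrp2 encodes megalin, and it was lowest in WT replicate 2 with TGFb1 and under 5 CPM in 6 libraries that came from all 4 groups. Cubn was measured at 2.04, 1.88, 1.84, 4.05 and 2.09 CPM in untreated WT libraries and at 2.88, 1.8, 4.29, 1.52 and 1.86 CPM in WT libraries with TGFb1. Cubn stood at 3.57, 3.79, 2.09, 4.01 and 4.33 CPM in untreated WWP2-/- libraries and at 2.16, 4.61, 6.86, 4.37 and 4.04 CPM in WWP2-/- libraries with TGFb1. Cubn, for cubilin, varied little, between 1.52 and 6.86 CPM, and was highest in WWP2-/- replicate 3 with TGFb1, a library whose median rank over the 26 genes was 13.5 of 20. Part of Cubn's exons lie opposite those of Gm13270, and no source used here says whether counting took account of strand.

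Aqp1 was measured at 56.7, 63.8, 4.11, 11.3 and 30.6 CPM in untreated WT libraries and at 11.3, 1.46, 14.2, 5.62 and 0.796 CPM in WT libraries with TGFb1. Aqp1 stood at 20.6, 78, 0.221, 24.5 and 15 CPM in untreated WWP2-/- libraries and at 0.202, 5.17, 1.07, 9.54 and 21.1 CPM in WWP2-/- libraries with TGFb1. Aqp1 encodes the water channel of proximal tubule and descending limb, which endothelium carries as well. It was highest in untreated WWP2-/- replicate 2 and at 0.202 and 0.221 CPM in the 2 libraries low in Acta2. In both genotypes the mean was lower with TGFb1, at 6.68 ± 5.95 CPM against 33.3 ± 26.6 CPM in WT and 7.42 ± 8.51 CPM against 27.7 ± 29.6 CPM in WWP2-/- (SD, n = 5), but the groups overlapped and neither difference passed the test (edgeR adjusted P = 0.767 and 1).

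Slc12a1 was measured at 0.643, 0.514, 0.572, 1.77 and 0.444 CPM in untreated WT libraries and at 0.968, 0.761, 2.85, 0.182 and 0.919 CPM in WT libraries with TGFb1. Slc12a1 stood at 2.73, 0.947, 2.42, 2.77 and 2.25 CPM in untreated WWP2-/- libraries and at 3.54, 4.51, 5.19, 1.78 and 1.73 CPM in WWP2-/- libraries with TGFb1. Slc12a1 encodes NKCC2, the salt cotransporter of the thick ascending limb. Its highest values were in WWP2-/- replicates 3, 2 and 1 with TGFb1. Cubn shared the first 2 of these and the lowest library, WT replicate 4 with TGFb1. Treated WWP2-/- replicate 1, low in Acta2, held 3.54 CPM of Slc12a1 beside 0.0337 CPM of Krt8. Umod of the same segment was at 0 CPM in replicates 1 and 3.

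Lists of other genes of each segment were read the same way. Among 22 further proximal tubule genes 5 reached 1 CPM in some library, namely Dab2 (42.0 to 160 CPM), Slc4a4 (10.4 to 78.6 CPM), Dpep1 (0 to 44.9 CPM), Ggt1 (0.485 to 14.4 CPM) and Amn (0.101 to 1.20 CPM), and Dab2, an endocytic adaptor, is made by macrophages and fibroblasts too. Of 12 genes of the loop of Henle 4 did, led by Ptger3 (0.0604 to 35.6 CPM) and Cldn19 (0 to 7.84 CPM). Of 8 genes of the distal convoluted tubule 4 did, led by the widely used kinase gene Wnk1 (260 to 589 CPM). Of 12 principal cell genes 4 did, led by Tfcp2l1 (0.505 to 27.2 CPM) and Hsd11b2 (0 to 11.6 CPM), and of 11 intercalated cell genes Atp6v0d2 alone did (0.694 to 99.0 CPM), a proton pump subunit that macrophages and osteoclasts also make.

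The upstream stretches of 4 of the genes are shown because the values that follow set them apart: Epcam, Cldn4 and Mal were at or near 0 in WT replicates 2 and 5 with TGFb1, where Pax8 was not. The letters are the 250 bases before the RefSeq start on GRCm38.p6, read 5′ to 3′ on the gene's strand, and none of these bases lies in a GENCODE M21 exon. They are Epcam at chr17:87635729-87635978 (plus strand), Cldn4 at chr5:134946935-134947184 (minus), Mal at chr2:127656696-127656945 (minus) and Pax8 at chr2:24475600-24475849 (minus). Capitals mark the E-box CAGGTG or its reverse complement CACCTG, which Snail and Zeb factors bind, and a grainyhead-like motif AACCNGTT or its reverse complement AACNGGTT would be marked as well.
Epcam: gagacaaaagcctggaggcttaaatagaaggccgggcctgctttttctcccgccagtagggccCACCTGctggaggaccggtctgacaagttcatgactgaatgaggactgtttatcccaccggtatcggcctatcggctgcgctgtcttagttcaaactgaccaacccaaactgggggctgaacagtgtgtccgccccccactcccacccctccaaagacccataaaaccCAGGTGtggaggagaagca
Cldn4: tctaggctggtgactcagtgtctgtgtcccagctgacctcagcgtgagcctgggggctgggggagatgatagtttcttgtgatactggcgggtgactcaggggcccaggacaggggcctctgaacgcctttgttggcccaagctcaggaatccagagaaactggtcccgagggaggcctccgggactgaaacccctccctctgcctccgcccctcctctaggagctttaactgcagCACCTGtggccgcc
Mal: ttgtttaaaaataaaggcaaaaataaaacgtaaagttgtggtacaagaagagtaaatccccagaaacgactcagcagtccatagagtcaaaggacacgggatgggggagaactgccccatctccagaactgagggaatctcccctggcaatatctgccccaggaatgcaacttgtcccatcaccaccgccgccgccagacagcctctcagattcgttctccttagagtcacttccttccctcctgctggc
Pax8: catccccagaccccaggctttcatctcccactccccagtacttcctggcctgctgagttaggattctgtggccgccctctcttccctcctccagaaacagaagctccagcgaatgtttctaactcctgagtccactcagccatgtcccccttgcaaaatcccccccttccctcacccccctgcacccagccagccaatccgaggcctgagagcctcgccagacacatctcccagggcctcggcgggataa
Epcam held E-boxes that begin 187 and 19 bases before the start, Cldn4 held 1 that begins 14 bases before it, and Mal and Pax8 held none of these letters in this window. RefSeq gave such stretches for 25 of the 31 genes, as 33 records, and 15 records (45.5%) held an E-box, compared with 17.2% of all 32841 records. The grainyhead-like motif stood in 3 of the 33 records (9.09%), of Prom1 and Pax2, and in 1.79% of all. Not every gene paired in this way. Krt7 and a record of Pax2 held an E-box, and both genes were above 1 CPM in WT replicates 2 and 5 with TGFb1. A match is a description of the letters and not a site, and no test was made of it.

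The simple epithelial keratins form the filaments of single-layered epithelium, with Krt8 and Krt18 as partners and Krt7 and Krt19 in ducts and in injured tubules. Krt8 was measured at 20.4, 34.5, 0.797, 50.1 and 11 CPM in untreated WT libraries and at 5.83, 0.0200, 18.3, 0.182 and 0 CPM in WT libraries with TGFb1. Krt8 stood at 11.6, 52.1, 0, 3.26 and 1.73 CPM in untreated WWP2-/- libraries and at 0.0337, 8.35, 2.8, 49.8 and 49.7 CPM in WWP2-/- libraries with TGFb1. Krt8 spanned from 0 to 52.1 CPM, and both extremes occurred among untreated WWP2-/- libraries. In WT with TGFb1 it was above 1 CPM in replicates 1 and 3 only. A Krt8 pseudogene is named in the annotation, so some Krt8 reads may have more than 1 possible source. Krt18 was measured at 12.1, 19, 1.08, 26.7 and 6.45 CPM in untreated WT libraries and at 2.5, 0.220, 6.21, 0.586 and 0.204 CPM in WT libraries with TGFb1. Krt18 stood at 7.91, 33.3, 0.805, 4.1 and 2.4 CPM in untreated WWP2-/- libraries and at 1.06, 6.57, 2.93, 29.3 and 31.3 CPM in WWP2-/- libraries with TGFb1. Krt18 had the same 4 highest libraries as Krt8, and was at 0.204 and 0.220 CPM in WT replicates 5 and 2 with TGFb1. Krt19 was measured at 6.49, 10.2, 0.961, 7 and 3.83 CPM in untreated WT libraries and at 2.08, 1.78, 2.97, 2.5 and 2.02 CPM in WT libraries with TGFb1. Krt19 stood at 7.87, 11, 2.8, 12.8 and 10.6 CPM in untreated WWP2-/- libraries and at 1.92, 2.51, 1.84, 6.16 and 7.73 CPM in WWP2-/- libraries with TGFb1. Krt19 was at 0.961 CPM or more in all libraries and, unlike Krt8, at 1.78 and 2.02 CPM in WT replicates 2 and 5 with TGFb1. The highest Krt19 values were in untreated WWP2-/- replicates 4, 2 and 5. Krt7 was measured at 9.85, 14.1, 1.17, 13 and 7.06 CPM in untreated WT libraries and at 4.5, 4.07, 4.29, 5.27 and 4.29 CPM in WT libraries with TGFb1. Krt7 stood at 3.26, 15, 0.161, 1.81 and 1.48 CPM in untreated WWP2-/- libraries and at 0.236, 2.49, 1.09, 10.8 and 12.9 CPM in WWP2-/- libraries with TGFb1. Krt7 lay within 4.07 to 5.27 CPM in all 5 WT libraries with TGFb1, where Krt8 ran from 0 to 18.3 CPM, so the keratins differed in which libraries held them.

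The adhesion and surface proteins gave a like split. Epcam was measured at 4.25, 5.4, 0.0818, 7.09 and 2.42 CPM in untreated WT libraries and at 0.686, 0.0200, 1.7, 0.162 and 0.0204 CPM in WT libraries with TGFb1. Epcam stood at 1.18, 5.9, 0.0604, 0.534 and 0.415 CPM in untreated WWP2-/- libraries and at 0.0842, 1.36, 0.464, 4.94 and 5.73 CPM in WWP2-/- libraries with TGFb1. Epcam encodes an adhesion molecule of simple epithelium, and it was above 5 CPM in untreated WT replicates 2 and 4, untreated WWP2-/- replicate 2 and WWP2-/- replicate 5 with TGFb1. Cdh1 was measured at 5.5, 6.38, 0.245, 7.61 and 3.05 CPM in untreated WT libraries and at 0.766, 0.0200, 2.39, 0.0606 and 0.0408 CPM in WT libraries with TGFb1. Cdh1 stood at 1.52, 7.53, 0.0604, 0.433 and 0.371 CPM in untreated WWP2-/- libraries and at 0, 1.83, 0.565, 5.14 and 7.12 CPM in WWP2-/- libraries with TGFb1. Cdh1, for E-cadherin of the adherens junction, was at 7.61 CPM at most, and below 0.1 CPM in 5 libraries, 3 of them WT with TGFb1. Cdh16 was measured at 132, 165, 13.3, 148 and 76.8 CPM in untreated WT libraries and at 28.8, 28.5, 39.3, 18.6 and 14.5 CPM in WT libraries with TGFb1. Cdh16 stood at 102, 366, 0.866, 97.2 and 78.3 CPM in untreated WWP2-/- libraries and at 0.606, 88.8, 9.08, 191 and 238 CPM in WWP2-/- libraries with TGFb1. Cdh16 encodes kidney-specific cadherin, and it was 14.5 to 39.3 CPM in all WT libraries with TGFb1, including replicates 2 and 5 whose Cdh1 was at 0.0200 and 0.0408 CPM. Only the 2 libraries low in Acta2 were under 1 CPM of Cdh16. Prom1 was measured at 48.8, 54.9, 1.59, 104 and 25.3 CPM in untreated WT libraries and at 4.64, 0.0401, 13.7, 0.768 and 0.0408 CPM in WT libraries with TGFb1. Prom1 stood at 48, 130.2, 0.161, 27.3 and 20.1 CPM in untreated WWP2-/- libraries and at 0.0842, 76.2, 10.6, 132 and 159.8 CPM in WWP2-/- libraries with TGFb1. Prom1 encodes prominin-1 of tubular progenitor-like and injured cells, and Gm16401 overlaps some of its exons on the other strand. It was above 100 CPM in 4 libraries and at or under 0.161 CPM in another 4. Mal was measured at 6.56, 8.31, 0.286, 9.08 and 3.12 CPM in untreated WT libraries and at 0.726, 0, 3.07, 0.0808 and 0 CPM in WT libraries with TGFb1. Mal stood at 1.82, 10.4, 0, 0.967 and 0.608 CPM in untreated WWP2-/- libraries and at 0.0168, 2.73, 0.282, 7.53 and 7.83 CPM in WWP2-/- libraries with TGFb1. Mal encodes a protein of apical sorting in distal tubules, and it was at 0 CPM in 3 libraries. Cdh1, Cdh16 and Slc12a3 lie on chromosome 8, as Wwp2 does.

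The tight junction proteins seal the epithelium. Cldn1 was measured at 69.5, 71.3, 18, 135 and 38.4 CPM in untreated WT libraries and at 65.5, 45.1, 96.7, 13.2 and 44.3 CPM in WT libraries with TGFb1. Cldn1 stood at 87.2, 147, 0.785, 95.2 and 93.2 CPM in untreated WWP2-/- libraries and at 0.674, 91.9, 49.6, 147 and 159 CPM in WWP2-/- libraries with TGFb1. Cldn1 encodes a claudin of parietal epithelium and distal segments. It was 44.3 and 45.1 CPM in WT replicates 5 and 2 with TGFb1, and under 1 CPM only in the 2 libraries low in Acta2. Cldn4 was measured at 20.7, 31.7, 1.14, 46.7 and 11.2 CPM in untreated WT libraries and at 8.01, 0, 22, 0.586 and 0.0408 CPM in WT libraries with TGFb1. Cldn4 stood at 12.5, 46.4, 0.866, 11.5 and 7.2 CPM in untreated WWP2-/- libraries and at 0.994, 11.9, 18.5, 40.3 and 45 CPM in WWP2-/- libraries with TGFb1. Cldn4, a claudin of collecting duct and injured tubule, was at 0 and 0.0408 CPM in those same WT replicates 2 and 5, so Cldn1 and Cldn4 parted there. Cldn3 was measured at 2.45, 4.53, 0.164, 3.93 and 1.48 CPM in untreated WT libraries and at 0.323, 0, 0.898, 0.0808 and 0 CPM in WT libraries with TGFb1. Cldn3 stood at 1.25, 6.19, 0.0403, 0.953 and 0.385 CPM in untreated WWP2-/- libraries and at 0.101, 0.698, 0.182, 3.47 and 5.33 CPM in WWP2-/- libraries with TGFb1. Cldn3 is a claudin of distal segments, and it was at 0 CPM in WT replicates 2 and 5 with TGFb1 and above 1 CPM in 8 libraries. In all, 40 bases of its exons lie opposite those of Wbscr25. Cldn7 was measured at 2.26, 4.47, 0.307, 3.76 and 1.68 CPM in untreated WT libraries and at 0.343, 0.0200, 0.758, 0.0606 and 0.0408 CPM in WT libraries with TGFb1. Cldn7 stood at 0.662, 4.2, 0.161, 0.245 and 0.237 CPM in untreated WWP2-/- libraries and at 0.0842, 0.615, 0.202, 2.5 and 2.9 CPM in WWP2-/- libraries with TGFb1. Cldn7, a claudin found along the distal nephron, was above 1 CPM in 7 libraries, and its highest value was in untreated WT replicate 2. Ocln, for occludin, ranged from 0 to 1.82 CPM and had no group mean of 1 CPM.

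**Figure D2:**
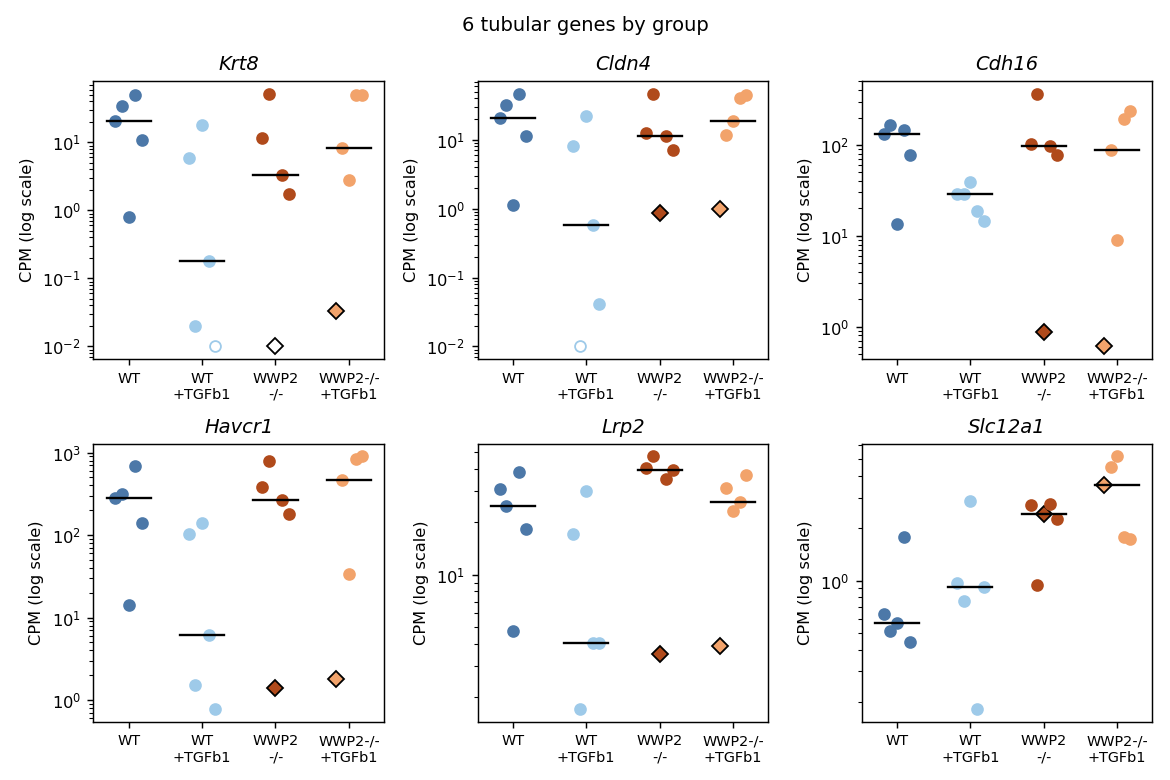
CPM on a log scale of 6 tubular genes in the 5 libraries of each of the 4 groups. Points are libraries, diamonds are the 2 WWP2-/- libraries low in Acta2, open points are at 0 CPM and drawn at 0.01, and the bar is the group's median. The groups overlap in each panel, and Slc12a1 lies at 3.54 CPM in a diamond whose Krt8 is at 0.0337 CPM.

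The regulators of the epithelial programme were measured at low levels. Elf3 was measured at 2.76, 3.34, 0.164, 7.98 and 1.39 CPM in untreated WT libraries and at 1.47, 0.882, 1.72, 0.121 and 0.858 CPM in WT libraries with TGFb1. Elf3 stood at 3.25, 10.5, 0.0604, 3.73 and 3.29 CPM in untreated WWP2-/- libraries and at 0.185, 4.42, 2.1, 10.9 and 10.6 CPM in WWP2-/- libraries with TGFb1. Elf3 encodes an Ets factor of injured and differentiated epithelium, partly overlapped by Gm26642 on the other strand, and it was at 10.5 to 10.9 CPM in untreated WWP2-/- replicate 2 and WWP2-/- replicates 4 and 5 with TGFb1. Ehf was measured at 0.607, 0.948, 0.0818, 2.16 and 0.517 CPM in untreated WT libraries and at 0.323, 0.220, 0.539, 0.0606 and 0.225 CPM in WT libraries with TGFb1. Ehf stood at 0.792, 2.37, 0, 0.578 and 0.875 CPM in untreated WWP2-/- libraries and at 0.0842, 0.682, 0.242, 2.16 and 2.52 CPM in WWP2-/- libraries with TGFb1. Ehf, its relative, had the same 3 libraries highest together with untreated WT replicate 4, all above 2 CPM, and no other library reached 1 CPM. Grhl2, a grainyhead-like activator of epithelial junction genes, reached 0.990 CPM, and Esrp1, an epithelial splicing factor, reached 1.89 CPM. Both have no group mean of 1 CPM.

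The renal lineage factors, which mark kidney epithelium from development on, were above 1 CPM in every library. Pax2 was measured at 57.4, 58.9, 12, 117 and 37.7 CPM in untreated WT libraries and at 52.4, 45.6, 53.3, 12.8 and 51.1 CPM in WT libraries with TGFb1. Pax2 stood at 89.2, 118, 3.6, 91.8 and 102 CPM in untreated WWP2-/- libraries and at 2.58, 108, 70.7, 105 and 110.0 CPM in WWP2-/- libraries with TGFb1. Pax2 was above 10 CPM in every library except the 2 low in Acta2, which held 3.60 and 2.58 CPM. Pax8 was measured at 73.4, 81, 12.5, 142 and 44 CPM in untreated WT libraries and at 60.3, 34.8, 99.6, 12.9 and 29.9 CPM in WT libraries with TGFb1. Pax8 stood at 109, 195, 8.44, 120.0 and 120.0 CPM in untreated WWP2-/- libraries and at 6.37, 125, 53.1, 166 and 177 CPM in WWP2-/- libraries with TGFb1. Pax8 was at 8.44 and 6.37 CPM in those 2 and at 12.5 CPM or more elsewhere. WT replicates 2 and 5 with TGFb1, which held at most 0.0408 CPM of Epcam and Cdh1, held 45.6 and 51.1 CPM of Pax2 and 34.8 and 29.9 CPM of Pax8. Gm13415 overlaps part of Pax8 on the other strand.

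The injury and secreted genes came last. Havcr1 was measured at 282, 315, 14.1, 683 and 139.8 CPM in untreated WT libraries and at 104, 1.5, 141, 6.1 and 0.776 CPM in WT libraries with TGFb1. Havcr1 stood at 379, 789.6, 1.41, 266 and 181 CPM in untreated WWP2-/- libraries and at 1.8, 462, 34.1, 825 and 898 CPM in WWP2-/- libraries with TGFb1. Havcr1 encodes KIM-1, a phosphatidylserine receptor of injured proximal tubule. Per kilobase of exon it had the highest mean of the 31 genes over the 20 libraries, 119.6 ± 131 CPM per kilobase (SD, n = 20), ahead of Cdh16 at 24.2 ± 24.9 and Cldn1 at 15.2 ± 10.02, and with spreads of this size the neighbours in that order overlap. It made up 44.6% of the summed level in WWP2-/- replicate 5 with TGFb1 and 0.471% in WT replicate 5 with TGFb1. Lcn2 was measured at 2.08, 3.95, 0.204, 9.66 and 1.4 CPM in untreated WT libraries and at 6.86, 13.2, 0.918, 0.242 and 8.72 CPM in WT libraries with TGFb1. Lcn2 stood at 10, 7.1, 57.4, 0.765 and 0.741 CPM in untreated WWP2-/- libraries and at 36.4, 2.48, 0.121, 16.8 and 13.6 CPM in WWP2-/- libraries with TGFb1. Lcn2 encodes NGAL, which injured tubules, neutrophils and other stressed cells release, and it went its own way: the highest values, 57.4 and 36.4 CPM, were in the 2 libraries low in Acta2, whose Krt8 was at 0 and 0.0337 CPM. Wfdc2 was measured at 1.05, 2.15, 0.0204, 1.74 and 0.758 CPM in untreated WT libraries and at 0.141, 0, 0.160, 0 and 0 CPM in WT libraries with TGFb1. Wfdc2 stood at 0.481, 3.09, 0, 0.0433 and 0.133 CPM in untreated WWP2-/- libraries and at 0, 0.249, 0.0404, 1.71 and 2.18 CPM in WWP2-/- libraries with TGFb1. Wfdc2, a secreted protease inhibitor-like protein of the distal nephron, was at 0 CPM in 5 libraries, of which 3 were WT with TGFb1 and the others the 2 low in Acta2.

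With TGFb1, the genotype comparison gave 0 of the 28 tested genes past an adjusted P of 0.05 in edgeR, where 6.07% of all 20407 genes tested were called. Before adjustment 8 had P under 0.05, as did 24.7% of all genes, and DESeq2 called 3 (Slc12a1, Prom1 and Krt18), where it called 13.1% of all genes. The fitted log2 fold change was positive, meaning higher in WWP2-/-, for 28 of 28, with a median of 2.04, compared with a median of 0.05 over all genes tested, and 55.2% of all genes were positive. The 28 share libraries, so their directions are not separate observations. In none of the 31 did all libraries of a genotype lie above those of the other, as they did for 5.67% of all genes. The smallest adjusted P was that of Slc12a1, 0.0967, with a log2 fold change of 1.56 ± 0.56 (SE) and means of 3.35 ± 1.57 and 1.14 ± 1.01 CPM (SD, n = 5). Prom1 had the largest fitted difference, 4.30 ± 1.64 on the log2 scale (adjusted P = 0.117), with means of 75.8 ± 71.1 CPM in WWP2-/- and 3.84 ± 5.83 CPM in WT. Havcr1 was at 444 ± 423 CPM against 50.7 ± 66.9 CPM (log2 fold change 3.13 ± 1.55, adjusted P = 0.218), and Krt8 at 22.1 ± 25.4 against 4.87 ± 7.92 CPM (2.18 ± 1.70, adjusted P = 0.454). In 3 of 5 WWP2-/- libraries Prom1 and Havcr1 were above all WT libraries, and in the others they were not.

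Without the 2 libraries low in Acta2, a choice made after seeing the data, 5 of the 28 passed the test: Prom1 (log2 fold change 4.59, adjusted P = 0.0267), Elf3 (2.78, 0.0299), Cubn (1.002, 0.0345), Cdh16 (2.32, 0.0417) and Ehf (2.33, 0.0493), where 17.2% of all genes were called. Elf3 and Pax2 then did not overlap between genotypes, 2 of the 31, where 11.4% of all genes did not. Leaving out WT replicate 3 with TGFb1 alone gave 4 calls (Slc12a1, Cubn, Slc12a3 and Krt18), where 13.4% of all genes were called, and no other single library gave any. Each choice brought genotype and Xist closer together. WWP2-/- replicate 1 was the only treated WWP2-/- library with Xist above 1 CPM, and WT replicate 3 the only treated WT library without it. The part of Xist in these calls was not tested.

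Untreated, the comparison of WWP2-/- with WT also called 0 of 28 in edgeR, against 0.725% of all genes, with 1 unadjusted P under 0.05 (14.9% of all genes) and 0 calls by DESeq2, which called 3.64% of all. The direction was mixed, 12 higher and 16 lower, with a median log2 fold change of -0.34. Slc12a1 had the smallest adjusted P (0.235; 2.22 ± 0.745 against 0.789 ± 0.553 CPM, SD, n = 5), and it was above all WT libraries in 4 of 5. Epcam and Cdh1 had the lowest fitted values, -1.25 ± 1.23 and -1.20 ± 1.33 on the log2 scale (SE), each about as large as its SE. All 31 overlapped, as did all but 2.79% of the genes tested.

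In WT cells, 25 of the 28 fitted values for TGFb1 against untreated were negative, with a median of -2.12, compared with 0.02 over all genes. In edgeR 0 were called, as of all genes (0.0%), 9 had an unadjusted P under 0.05 against 6.85% of all genes, and DESeq2 called 0 of them and 0.132% of all. The largest was Wfdc2, at 0.0602 ± 0.0826 against 1.14 ± 0.835 CPM (log2 fold change -4.20 ± 1.61, adjusted P = 0.644). Prom1 was at 3.84 ± 5.83 CPM with TGFb1 against 47.0 ± 38.4 CPM untreated (-3.62 ± 1.59, adjusted P = 0.697) and Cdh1 at 0.656 ± 1.02 against 4.56 ± 2.93 CPM (-2.79 ± 1.42, adjusted P = 0.768). Pax2, Pax8, Cldn1 and Krt7 had smaller values, from -1.01 to -0.33, and Lcn2, Slc12a1 and Cubn were the 3 positive ones. No gene was without overlap, as 1.35% of all genes were, and untreated WT replicate 3 lay among the treated libraries for most of the genes.

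In WWP2-/- cells the same comparison gave 21 positive and 7 negative values with a median of 0.33. In edgeR 0 were called, as of all genes (0.0%), 1 had an unadjusted P under 0.05, Krt19 (9.01 ± 3.89 CPM untreated against 4.03 ± 2.73 CPM), where 3.49% of all genes did, and DESeq2 called 0 of them and 0.24% of all. All groups overlapped, as did all but 0.377% of the genes tested, and without the 2 libraries low in Acta2 Krt19 did not, 1 of the 31 where 4.27% of all genes did not. The treatment comparisons in both genotypes were then set against each other by the interaction term, whose log2 values were positive for 27 of 28 with a median of 2.21. Again 0 were called in edgeR, as of all genes (0.0%), with 3 unadjusted P values under 0.05 (6.98% of all genes), and 0 in DESeq2, which called 0.049% of all. A difference between the genotypes in the response to TGFb1 was therefore not shown. The comparisons share groups, so their values are not independent of each other.

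**Figure D3:**
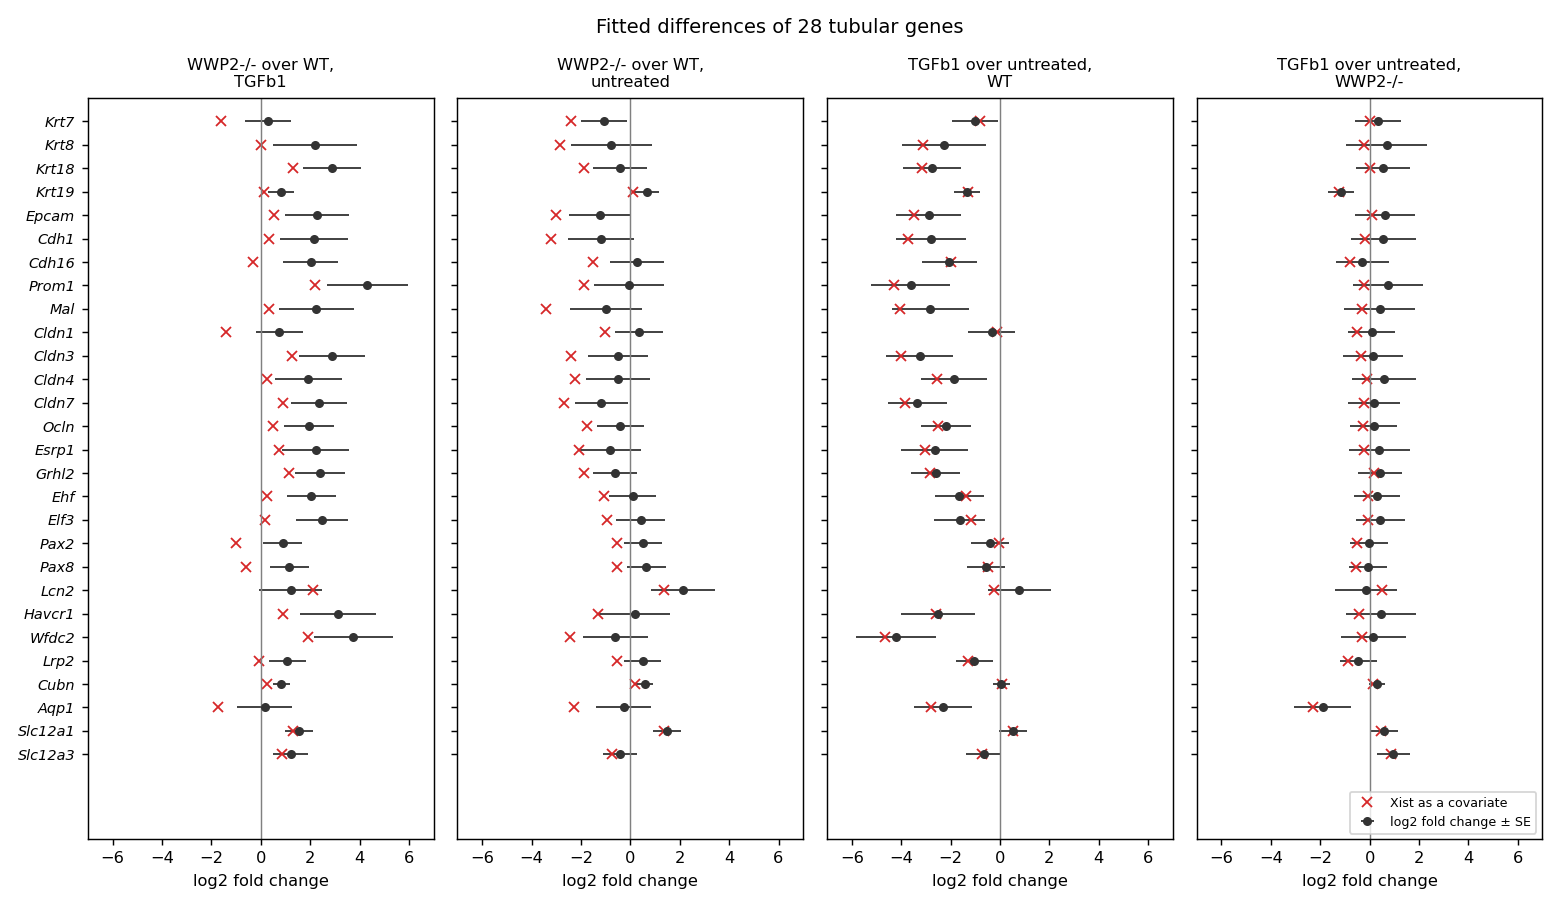
Log2 fold change of the 28 tested genes (rows) in 4 comparisons (panels), with SE from the edgeR fit (black) and with Xist as a covariate (red crosses). Most black points lie to the right with TGFb1 in the genotype comparison (median 2.04) and to the left for TGFb1 in WT (median -2.12), and none passed an adjusted P of 0.05.

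The libraries with and without Xist were then read apart, since Xist was above 1 CPM in 4 of 5 WT libraries with TGFb1 and in 1 of 5 WWP2-/- libraries with TGFb1. Among treated libraries without Xist, the summed level was 562 CPM in the WT library and 295 to 2015 CPM in 4 WWP2-/- libraries. With Xist it was 85.9 to 383 CPM in 4 WT libraries and 63.3 CPM in the WWP2-/- library, which is low in Acta2. Untreated, it was 1585 CPM in the WT library without Xist against 688 to 2096 CPM in 3 WWP2-/- libraries, and 89.8 to 989 CPM in 4 WT libraries with Xist against 86.1 to 947 CPM in 2 WWP2-/- libraries. Over all groups it was 63.3 to 989 CPM with Xist and 295 to 2096 CPM without. Of the libraries with Xist, the 5 with Y-linked genes above 1 CPM held 383 to 989 CPM. Those without held 63.3 to 182 CPM, below every library with Y-linked genes above 1 CPM. They were untreated WT replicate 3, WT replicates 2, 4 and 5 with TGFb1, and the 2 libraries low in Acta2. The cause of this split was not tested. Gene by gene, 26 genes were compared by the median of each genotype. With TGFb1 the WWP2-/- median was higher for 24 of 26 without Xist and for 7 of 26 with Xist. In untreated libraries it was higher for 4 of 26 without Xist and for 5 of 26 with Xist. Where a genotype had 1 library, its value stood for the median. With log2 Xist as a covariate the median log2 fold change of the 28 in WWP2-/- against WT with TGFb1 was 0.32, 21 of 28 were positive, and 0 were called, where edgeR called 3.23% of all genes. Untreated, the median was -1.80 with 4 positive.

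The tubular genes also moved beside markers of other cells. All 12 genes of a macrophage list reached 1 CPM, and their sum was 168 to 4199 CPM in untreated WT, 84.7 to 482 CPM in WT with TGFb1, 95.3 to 1921 CPM in untreated WWP2-/- and 93.3 to 3755 CPM in WWP2-/- with TGFb1. It was highest in untreated WT replicate 4, untreated WWP2-/- replicate 2 and WWP2-/- replicates 4 and 5 with TGFb1, the libraries highest in tubular genes. In WWP2-/- against WT with TGFb1, 12 of 12 macrophage genes had positive values, with a median of 2.52 and none called. A list of 10 endothelial genes summed to 73.6 to 91.0, 74.9 to 244, 19.4 to 189 and 24.7 to 191 CPM in the same order of groups, and a list of 10 fibroblast genes to 3562 to 19447, 9711 to 35243, 3651 to 10263 and 4248 to 13371 CPM. In WWP2-/- against WT with TGFb1, 3 of 10 fibroblast genes (Col1a2, Postn and Col1a1) and 2 of 10 endothelial genes (Tek and Kdr) fell. Of all genes 6.07% were called there. Tek fell untreated as well, where 0.725% of all genes were called. Of the 10 endothelial genes 7 were positive with TGFb1 (median 0.60) and 7 untreated (median 0.71). Of the 10 fibroblast genes 0 were positive with TGFb1 (median -2.34) and 1 untreated (median -1.79). With Xist as a covariate none of the 5 genes that fell was called (edgeR adjusted P = 0.0800 to 0.296, and 0.0921 for Tek untreated). Col1a1 and Postn kept the call in 4 and 9 of 20 fits without 1 library, Kdr in 14, and Col1a2 and Tek in 20. Of the Schwann cell, urothelial, mesothelial and podocyte lists Wt1 alone was called. The part of these cells, of Xist and of the 2 libraries low in Acta2 in the values of the tubular genes was not tested.

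**Figure D4:**
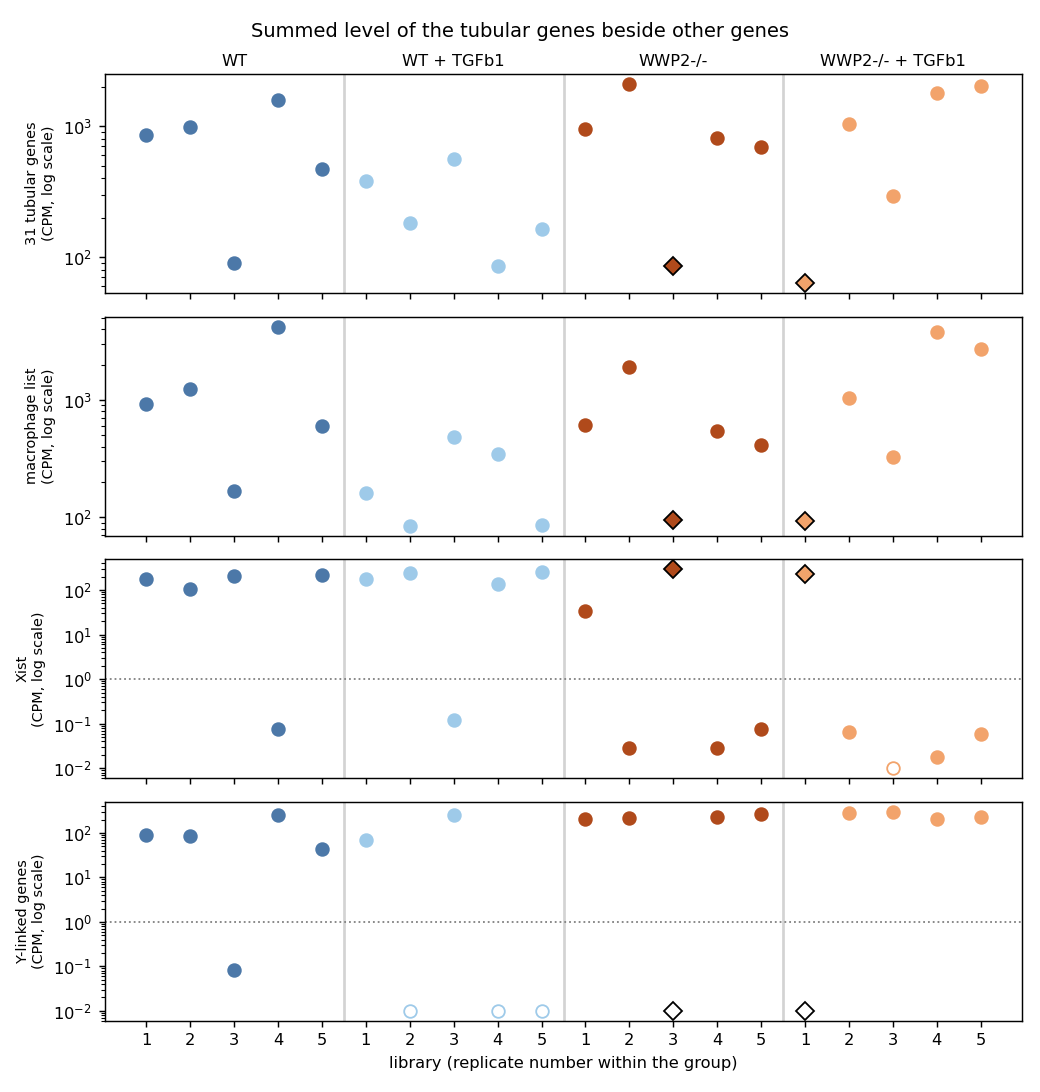
Summed CPM of the 31 tubular genes, of the 12 macrophage genes, of Xist and of Y-linked genes in each of the 20 libraries, on log scales. Colours are groups, diamonds are the 2 WWP2-/- libraries low in Acta2, open points are at 0 and drawn at 0.01, and dotted lines mark 1 CPM. The 4 libraries with the highest tubular sums, from 1585 to 2096 CPM, are those with the highest macrophage sums.

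Among 44 further genes of the epithelial programme, 40 were tested, and in WWP2-/- against WT with TGFb1 2 rose and 1 fell, where 6.07% of all genes were called. The median log2 value was 0.99, with 34 of 40 positive. F11r, for the junctional adhesion molecule JAM-A, fell (log2 fold change -2.18 ± 0.37, adjusted P = 0.00649) and also fell in the untreated comparison (-2.02 ± 0.37, adjusted P = 0.0214). It stayed called with TGFb1 without any 1 of the 20 libraries, and untreated in 13 of those 20 fits and not with Xist as a covariate (edgeR adjusted P = 0.0636). Cldn12, a claudin, rose by 0.69 ± 0.19 on the log2 scale (adjusted P = 0.0407) and Spint1, a protease inhibitor of epithelial surfaces, rose by 3.69 ± 1.07 (adjusted P = 0.0480), of which 10 and 7 of the 20 fits without 1 library kept the call. Of 12 genes of tubular injury, 1 rose: Cd44, a hyaluronan receptor of injured tubules and of mesenchymal cells, by 1.46 ± 0.26 (adjusted P = 0.00783), kept in 20 of 20 fits. Of these 12 genes 7 were positive, with a median of 0.38. Of the segment lists, Foxq1 of the loop of Henle (2.43 ± 0.65, adjusted P = 0.0347) and Amn, which anchors cubilin in the proximal tubule (1.71 ± 0.47, adjusted P = 0.0399), rose, each kept in 13 of 20 fits, and both were at 1.24 CPM or less. In the proximal tubule list 5 of 10 tested genes were positive, with a median of -0.04. In the loop list 7 of 7 tested genes were, with a median of 0.95. Of 11 tested genes of the renal lineage list 1 fell, Wt1, a factor of podocytes and mesothelium (-1.22 ± 0.36, adjusted P = 0.0482), kept in 4 of 20 fits. In that list 10 of 11 values were positive, with a median of 2.01. With TGFb1 and Xist as a covariate F11r (adjusted P = 0.04996), Cd44 (0.0194) and Wt1 (0.0261) remained below 0.05, and Spint1, Cldn12, Foxq1 and Amn did not. None of 8 further genes, the Snail, Zeb and Twist factors, Prrx1 and the cadherin gene Cdh2, was called. Their sum, with Cdh2 in it, was 763 to 1203 CPM in untreated WT and 784 to 1491 CPM in WT with TGFb1. In WWP2-/- libraries it was 604 to 1064 CPM untreated and 707 to 1191 CPM with TGFb1.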

How the data were processed

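Poly-A RNA of cultured renal myofibroblasts was measured in 20 libraries, 5 in each of 4 groups taken from the sample labels. The authors aligned paired reads to GRCm38 with STAR and deposited counts of reads on the exons of each gene from featureCounts, with no normalization. No source used here says how strand or reads with several positions were handled. Genes were named with GENCODE M21.

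Of 51826 genes, the 20407 that reached 5 counts in 5 or more libraries were tested with the quasi-likelihood test of edgeR 4.0.16 (TMM, R 4.3.3), with all libraries and 4 groups in 1 fit, an adjusted P of 0.05 (Benjamini-Hochberg) and DESeq2 1.42.0 as an alternative. SE is the log2 fold change divided by the root of F. CPM are TMM-scaled, and CPM per kilobase use exon length. On simulated data for the comparison with TGFb1, the fit recovered 116 of 200 genes given a log2 change of 2, 179 of 200 given a change of 4, and called 0 with none changed.

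The members, the lists of other genes and the alternatives were chosen with earlier results of these data known. Values in every library are given for each of the 24 genes with a mean of at least 1 CPM in a group, the other 7 are given by range, and of the lists up to 3 called genes by mean CPM, or the highest where none was called. Alternatives were DESeq2 size factors, no filter, a filter of 10 counts in all libraries, a replicate block, log2(Xist CPM + 1) as a covariate, each library left out, DESeq2, only the groups compared and an adjusted P of 0.01. Leaving out the 2 libraries low in Acta2 was added after seeing the data. Promoter stretches come from RefSeq on GRCm38.p6.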

Additional observations from a re-analysis of the deposited data

Results flagged for a closer look

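A library whose value lay far from the other 4 of its group was looked for in 104 groups of 5 libraries, and 19 such values were found among 26 genes, by a limit that chance passes in about 1 in 20 groups of normally distributed values, whereas CPM are skewed. Untreated WWP2-/- replicate 2 was far above its group for Krt7 (15.0 CPM), Krt8 (52.1), Krt18 (33.3), Epcam (5.90), Cdh1 (7.53), Cdh16 (366), Mal (10.4), Cldn3 (6.19), Cldn4 (46.4), Cldn7 (4.20) and Wfdc2 (3.09), and far below it for Slc12a1 (0.947 CPM). Untreated WWP2-/- replicate 3, low in Acta2, was far below its group for Pax2 (3.60 CPM) and Lrp2 (3.52 CPM) and far above it for Lcn2 (57.4 CPM). Untreated WT replicate 4 was far above its group for Cubn (4.05 CPM) and Slc12a1 (1.77 CPM). Among WT libraries with TGFb1, replicate 3 was far above the rest for Mal (3.07 CPM) and replicate 4 far below them for Pax2 (12.8 CPM). The values share libraries, so they are not separate observations.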

How the results depend on the processing

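In WWP2-/- against WT with TGFb1, the number of tubular genes called was 0 in the main fit, 3 with DESeq2, 5 without the 2 libraries low in Acta2, and 0 to 4 with each library left out, 4 without WT replicate 3 with TGFb1. It was 0 under every other alternative run, and 0 in the other 4 comparisons under all of those run there. In those 4 the main fit called 0.725% of all genes for untreated WWP2-/- against WT and 0.0% in the rest. A count of 0 there says little about the tubular genes. In WWP2-/- against WT with TGFb1, 3.23% of all genes were called with Xist as a covariate. The shares under the remaining settings that called 0 are not given. With 5 counts in place of 1 CPM, the median number of genes detected was 18 in WT with TGFb1 (11 in the main setting), 27 in untreated WWP2-/- (16) and 28 in WWP2-/- with TGFb1 (20). Without the 2 libraries low in Acta2, 2 genes did not overlap in WWP2-/- against WT with TGFb1 and 1 in TGFb1 against untreated in WWP2-/-, where 11.4% and 4.27% of all genes did not. With Xist as a covariate, the log2 fold change in WWP2-/- against WT with TGFb1 changed sign for Krt7 (-1.62), Cdh16 (-0.33), Cldn1 (-1.42), Pax2 (-1.02), Pax8 (-0.59), Lrp2 (-0.087) and Aqp1 (-1.75), and for TGFb1 in WT that of Lcn2 (-0.22). With the replicate block it changed sign for Krt7 (-0.30) and Aqp1 (-0.65) in the first and Cldn1 (0.10) in the second comparison, and 0 tubular genes were called. With each library left out, the values ran from -0.31 to 0.58 for Krt7 and from -0.76 to 0.60 for Aqp1 in the first, and from -0.65 to 0.094 for Cldn1, -0.66 to 0.042 for Pax2, -0.23 to 0.32 for Cubn and -0.15 to 1.05 for Slc12a1 in the second. The cause was not tested.

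The replicate numbers were not treated as pairs: correlations of same-numbered libraries' deviations ran from -0.52 to 0.44. The SE of the log2 fold changes in WWP2-/- against WT with TGFb1 reached 1.70. Filters leave Slc34a1, Umod and Aqp2 untested. The filter of 10 counts in every library left 10 of the 28 genes tested.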
